A study of Mus musculus with 18 samples.

Results

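The proteasome genes described here are those whose symbol in the deposited expression table is Psma, Psmb, Psmc, Psmd, Psme, Psmf or Psmg followed by a number. Of the 22021 genes listed, 48 carried such a symbol, and 47 of them reached 1 CPM (the reads of a gene scaled so that each library has an equal sum) in at least 4 of 16 libraries, the filter that left 14214 genes for testing. The 47 genes comprise 7 alpha and 7 constitutive beta subunits of the core particle, 4 inducible or tissue-restricted beta subunits, 6 ATPases and 3 further subunits of the base of the regulatory particle, and 8 subunits of its lid. They also include 3 chaperones that assemble the regulatory particle (Psmd5, Psmd9 and Psmd10), the 4 chaperones Psmg1 to Psmg4 that assemble the core, the 4 activator genes Psme1 to Psme4, and Psmf1, whose product inhibits the core. Psma8, the alpha subunit of the testis, fell short of the filter. It was at 1.65 CPM in 1 normal pulldown, at 13.3 and 15.3 CPM in 2 paclitaxel pulldowns, and below 1 CPM in the other libraries. Psmb9, Psmb11 and Psmg4 reached 1 CPM in 15 libraries and the remaining 44 genes in all 16.

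The proteasome is the barrel-shaped protease that degrades proteins tagged with ubiquitin. Its core is built of stacked rings of alpha and beta subunits, with the peptide-cutting sites of Psmb5, Psmb6 and Psmb7 facing the inside. The regulatory particle binds ubiquitin chains, removes them, unfolds the substrate with its ring of ATPases and feeds it into the core. In cells exposed to interferon the subunits Psmb8, Psmb9 and Psmb10 take the place of the constitutive catalytic subunits, which gives the immunoproteasome, and in the cortical epithelium of the thymus Psmb11 is used. Sensory neurons are long-lived cells with long axons, and proteasome inhibitors used against myeloma are known for causing a peripheral neuropathy, as is paclitaxel, a drug that stabilises microtubules.

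The libraries came from dorsal root ganglia of Nav1.8-TRAP mice, made by crossing Rosa26fsTRAP mice to Nav1.8cre mice on a C57BL/6J background. All 4 groups carried both alleles, so that Cre, driven by the Scn10a (Nav1.8) promoter, turned on an EGFP-tagged L10a ribosomal protein in the neurons that express this channel. The animals were male and female littermates 8 to 12 weeks old. An input sample was taken from each cleared homogenate, and antibodies against GFP then pulled the tagged ribosomes and their mRNA from the rest of it, the translating ribosome affinity purification (TRAP). The groups were normal input, normal TRAP (biosamples 1 to 4), paclitaxel input and paclitaxel TRAP (biosamples 5 to 8), with 4 biosamples each. Paclitaxel was injected intraperitoneally every other day at 4 mg/kg, 4 times within 8 days, to a cumulative dose of 16 mg/kg. The treatment notes describe animals given the vehicle alone, but whether the group labelled normal consisted of these is not stated, nor are the number and the sex of the animals in a biosample. Biosample 7 was sequenced as 2 subsamples per fraction, which were averaged to count as 1 replicate.

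Libraries held 4266007 to 14478012 reads in input and 5972327 to 32713514 in TRAP. A floor of 3 reads corresponded to 0.0917 to 0.703 CPM, which covers counting error only. At least 1 CPM was reached by 13152 to 14043 genes in the inputs and by 8081 to 13228 genes in the pulldowns. Scn10a passed the test as higher in the pulldown in both treatments (log2 change 0.59, limma adjusted p = 0.0267, and 1.30, adjusted p = 6.81e-05). Of a list of 10 nociceptor markers that includes it, 3 were higher and 2 lower in the normal pulldown (Trpv1 and Calca, with changes of -1.14 and -0.94), and 7 were higher and 0 lower in the paclitaxel pulldown. The summed level of 5 pan-neuronal markers was 10823 to 13149 CPM in normal input and 18638 to 40144 CPM in normal TRAP, against 5395 to 7356 CPM and 9752 to 17139 CPM after paclitaxel. Of these 5 genes 3 and 4 passed as higher in the normal and the paclitaxel pulldowns, while Snap25 passed as lower in both (-0.72 and -0.74, limma adjusted p = 0.0103 and 0.0095). All 6 Schwann cell markers were lower in the pulldown in both treatments (summed 5988 to 11273 and 6628 to 8851 CPM in normal and paclitaxel input, 1978 to 3176 and 2129 to 2797 CPM in the pulldowns). Lower in the normal and the paclitaxel pulldowns were also 5 and 4 of 6 satellite glia markers, 3 and 6 of 9 macrophage markers, 3 and 4 of 5 endothelial markers, 4 and 4 of 5 fibroblast markers, 2 and 5 of 5 erythroid markers and 3 and 3 of 4 skeletal muscle markers. Nkg7, of the T and NK cell list in which 1 of 5 genes was tested, was at 0 in all normal pulldowns. In such extracts fewer cells of a type and less RNA per cell cannot be told apart. Nothing in the labels says that biosamples came from separate animals, so the p-values measure only the spread between these samples.

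As a group the proteasome genes took a larger share of the reads on the tagged ribosomes than in the ganglion extract. The 47 genes together made up 5103 to 7246 CPM of the normal inputs and 11163 to 14859 CPM of the normal pulldowns. The corresponding sums after paclitaxel were 5613 to 6231 CPM in input and 8834 to 9661 CPM in the pulldown, so that input and pulldown libraries did not overlap in either treatment. In the normal biosamples 20 of 47 genes passed as higher in the pulldown, or 42.6%, where 5.09% of all tested genes did. As lower, 5 genes passed, or 10.6%, where 24.7% of all tested genes did. The median log2 change, here and throughout the difference of log2(CPM + 1), was 0.39 for the 47 genes and -0.66 for all tested genes. After paclitaxel 15 genes passed as higher (31.9%, against 4.92% of all tested genes) and 2 as lower (4.26%, against 23%), with a median of 0.40 where that of all tested genes was -0.56. The distance between both medians was 1.04 in the normal and 0.96 in the paclitaxel biosamples.

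The direction was shared over biosamples by a good part of the genes. In each of the 8 biosamples Psmb3 had the highest difference of pulldown minus input among the 47 genes. In all 8 biosamples 16 genes were higher in the pulldown, or 34%, where 4.3% of all tested genes (611 genes) were. These were Psmb1, Psmb3, Psmb4, Psmb5, Psmb10, Psmc1, Psmc2, Psmc3, Psmc5, Psmd1, Psmd2, Psmd3, Psmd4, Psmd13, Psmd14 and Psme2. For Psmb10, Psmc5 and Psmd14 the subsamples of biosample 7 differed in direction, and their mean was counted. In subsample 1 the pulldown was below input for Psmc5 (15.0 against 23.9 CPM) and Psmd14 (88.4 against 106 CPM). In subsample 2 it was so for Psmb10 (21.3 against 22.2 CPM). Psmb11 and Psme4 were higher in the pulldown in 0 of 8 biosamples. As higher, 13 genes passed in both treatments, which is 65% of those of the normal and 86.7% of those of the paclitaxel biosamples. Another 7 (Psma7, Psmc5, Psmd9, Psmd10, Psmd14, Psme2 and Psmg3) passed in the normal biosamples alone and 2 (Psma6 and Psmb6) after paclitaxel alone, while 19 genes passed in neither direction in either treatment.

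**Figure D1:**
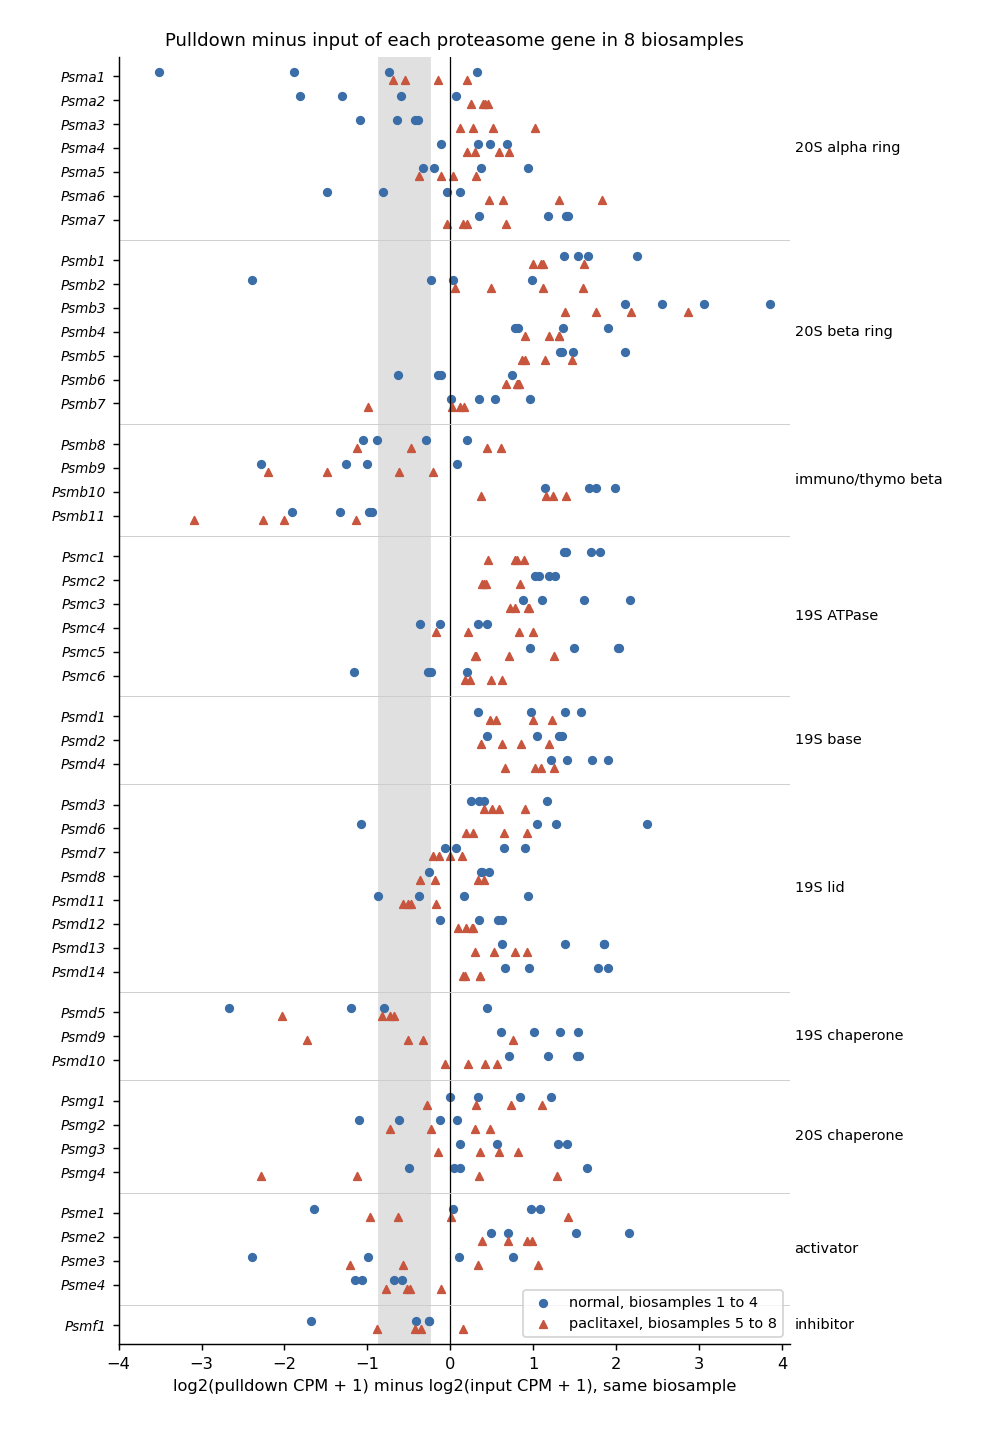
Difference of log2(CPM + 1) between pulldown and input of the same biosample (horizontal axis, log2 units) for each of the 47 proteasome genes, listed by subcomplex. Blue circles are normal biosamples 1 to 4, red triangles paclitaxel biosamples 5 to 8, the vertical line marks 0 and the grey band spans the medians of all tested genes in the 8 biosamples, -0.86 to -0.25. Psmb3 lies farthest to the right in each biosample, most constitutive beta, ATPase and base genes lie right of 0, and Psmb11 and Psme4 lie left of it throughout.

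The subcomplexes differed in how many of their genes passed. Among the constitutive beta subunits 4 of 7 passed as higher in the normal biosamples (Psmb1, Psmb3, Psmb4 and Psmb5, median log2 change of the 7 genes 1.21) and 5 of 7 after paclitaxel (the same 4 and Psmb6, median 1.10). Of the alpha subunits, in contrast, 1 of 7 passed as higher (Psma7) and 3 as lower (Psma1, Psma2 and Psma3) in the normal biosamples, with a median of -0.56. After paclitaxel 1 of 7 alpha genes passed as higher (Psma6), 0 as lower, and the median was 0.38. Summed over each ring, the constitutive beta genes stood at 0.992 to 1.26 times the alpha genes in the normal inputs and at 1.54 to 5.92 times in the normal pulldowns. After paclitaxel this ratio was 0.702 to 0.803 in input and 1.12 to 1.95 in the pulldown, above that of every input of the same treatment. In normal pulldowns 1 to 4 it was 5.92, 4.70, 2.26 and 1.54. Psmb3 and Psmb1 held most of the beta sum there, in biosample 1 with 2188 and 1480 CPM of 4695 CPM. Of the 7 beta genes 3 did not pass in the normal biosamples, and 2 had changes below 0 (lowest -0.40). The difference between the rings was not tested, since the genes of a ring are not replicates.

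Psmb3, a structural beta subunit without a catalytic site (ENSMUSG00000069744, GRCm38 chr11:97703399-97713500, plus strand), had the largest increase of the 47 genes in both treatments. Its level in normal biosamples 1 to 4 was 150.5, 248, 183 and 157 CPM in input and 2188, 2081, 1074 and 681 CPM in the pulldown. In paclitaxel biosamples 5 to 8 it was 123, 112, 131 and 132 CPM in input and 558, 824, 445 and 347 CPM in the pulldown. Pulldown and input did not overlap in either treatment, and biosamples 1 and 2 had the highest pulldown levels. The log2 change was 2.89 (SE 0.242, limma adjusted p = 5.22e-08) and 2.05 (SE 0.242, adjusted p = 4.67e-06), higher in 4 of 4 biosamples of each treatment.

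Psmb1 and Psmb4 are likewise structural subunits of the beta ring. Psmb1 was at 309, 515, 314 and 299 CPM in normal input and at 1480.3, 1494, 813 and 944 CPM in the normal pulldown, without overlap, which gave a log2 difference of 1.70 (SE 0.183, limma adjusted p = 1.09e-06). After paclitaxel its inputs were at 287 to 333 CPM and its pulldowns at 575 to 906 CPM (log2 change 1.20, adjusted p = 8.58e-05). Psmb4 was higher in the pulldown by 1.21 (SE 0.197, limma adjusted p = 0.000109) in the normal and by 1.18 (adjusted p = 0.000242) in the paclitaxel biosamples. One normal input of Psmb4, that of biosample 2 at 390 CPM, lay above the lowest normal pulldown at 303 CPM. Psmb2, another structural subunit, was at 21.7 ± 16.3 CPM in normal input and 15.8 ± 12.8 CPM in the normal pulldown (SD, n = 4) and passed in neither treatment.

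Each catalytic site has a constitutive and an interferon-inducible subunit, and the members of these pairs did not stand alike. Psmb5, which carries the chymotrypsin-like site (ENSMUSG00000022193, chr14:54614119-54618022, minus strand), was at 74.0, 128, 98.1 and 101 CPM in normal input and at 321, 358, 246 and 259 CPM in the normal pulldown. All 4 pulldowns lay above all 4 inputs, and the log2 change was 1.56 (SE 0.211, limma adjusted p = 1.51e-05). After paclitaxel it was 72.9, 68.2, 103 and 115 CPM in input and 162, 126, 288 and 217 CPM in the pulldown (log2 change 1.10, adjusted p = 0.000878). Psmb8, the inducible partner of Psmb5, had a log2 change of -0.51 in the normal and -0.13 in the paclitaxel biosamples and passed in neither (limma adjusted p = 0.517 and 0.881). Its share of the pair, on the CPM scale with no division by length, was 11.4% ± 5.09 in normal input and 3.36% ± 3.05 in the normal pulldown (SD, n = 4). In the paclitaxel biosamples the share was 12.7% ± 5.67 in input and 7.53% ± 6.33 in the pulldown.

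For the trypsin-like site the order was the opposite. Psmb10, the inducible subunit (chr8:105935735-105938444, minus strand), was at 35.6, 43.9, 31.4 and 35.4 CPM in normal input and at 144, 142, 70.2 and 122 CPM in the normal pulldown. The groups did not overlap, nor did they after paclitaxel (22.4 to 30.0 CPM in input, 35.9 to 73.1 CPM in the pulldown). There the pulldown of biosample 7 is the mean of subsamples at 81.1 and 21.3 CPM, and the second lay below every paclitaxel input. The log2 change was 1.64 (SE 0.293, limma adjusted p = 0.000294) and 1.04 (SE 0.293, adjusted p = 0.0117). After paclitaxel the call was lost without biosample 5 (0.92, adjusted p = 0.072) or without biosample 6 (0.97, limma adjusted p = 0.0569). It was also lost with subsample 2 alone standing for biosample 7 (0.735, limma adjusted p = 0.0799). Psmb7, the constitutive partner, had a log2 change of 0.47 and -0.17 and passed in neither treatment (limma adjusted p = 0.275 and 0.719). Exons of Psmb7 overlap those of Nek6 on the opposite strand, and the strand setting of the counting is not given in the sources used here. Psmb10 made up 57.5% ± 9.20 of the pair in normal input, 74.7% ± 9.29 in the normal pulldown, 33.6% ± 7.97 in paclitaxel input and 54.1% ± 14.5 in the paclitaxel pulldown (SD, n = 4). The share of 64.0% in paclitaxel pulldown 7 comes from subsamples that stood opposite. Psmb7 was at 1.59 CPM in subsample 1 and at 56.0 CPM in subsample 2, below and above Psmb10 there.

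At the caspase-like site both subunits failed to pass in the normal biosamples, Psmb6 with a log2 change of -0.04 and Psmb9 with -1.12 (limma adjusted p = 0.905 and 0.182). After paclitaxel Psmb6 was at 141, 111, 127 and 143 CPM in input and at 250.2, 176, 223 and 255 CPM in the pulldown. The 2 groups did not overlap, and the log2 change was 0.78 (SE 0.224, limma adjusted p = 0.0126, and 0.057 without biosample 5). Psmb9 had the lowest level of the 47 genes over all libraries, 0.19 to 7.05 CPM in the normal and 1.24 to 9.30 CPM in the paclitaxel libraries, with subsamples averaged. Its pulldown 7, at 7.43 CPM, is the mean of subsamples at 0 and 14.9 CPM, and the second lay above every paclitaxel input. Its share of the pair was 4.89% ± 2.33 in normal input and 2.15% ± 1.44 in the normal pulldown, and 6.29% ± 1.21 and 1.72% ± 1.13 after paclitaxel (SD, n = 4). Exons of Psmb9 and Tap1, and of Psmb8 and a predicted gene, overlap on opposite strands. A list of 10 antigen-presentation and interferon genes had 1 gene higher and 1 lower in the normal pulldown and 0 higher and 3 lower in the paclitaxel pulldown. It summed to 972 to 2163 CPM in normal input, 1092 to 3269 CPM in the normal pulldown, 987 to 1457 CPM in paclitaxel input and 633 to 918 CPM in the paclitaxel pulldown, with no gene at 0 in a whole group. Its part in the shares of inducible subunits was not tested.

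**Figure D2:**
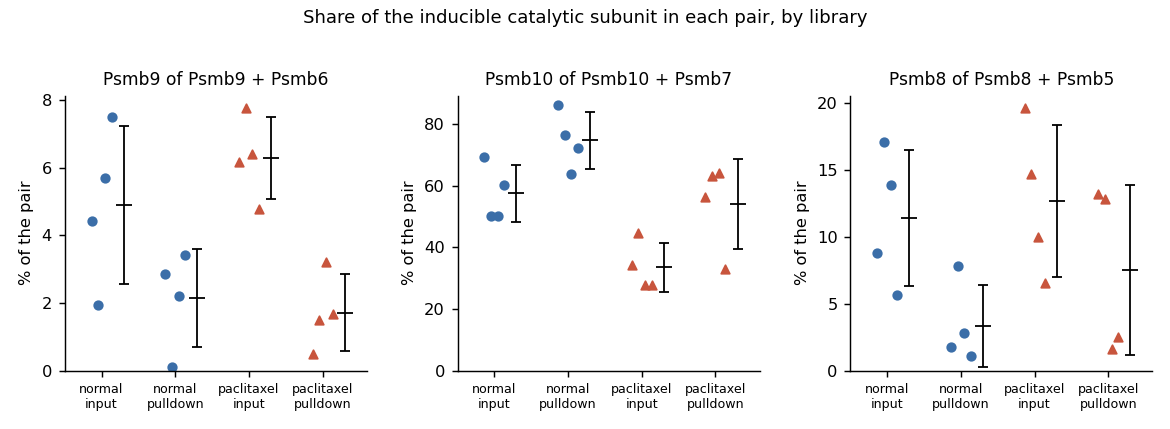
Share of the inducible subunit in the summed CPM of each catalytic pair (vertical axis, percent), for normal input, normal pulldown, paclitaxel input and paclitaxel pulldown. Points are libraries and the black bar is the mean with its SD over 4 biosamples. The share of Psmb10 is higher in the pulldown than in input on average in both treatments, that of Psmb8 and Psmb9 lower.

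Of the 5 genes that passed as lower in the normal biosamples, 3 were alpha subunits. Psma1 was at 43.6, 125, 78.1 and 35.4 CPM in normal input and at 11.1, 10.1, 46.5 and 44.4 CPM in the normal pulldown. Biosample 4 was the only one of these in which the pulldown lay above input, and the log2 change was -1.45 (SE 0.394, limma adjusted p = 0.0088). Psma2 changed by -0.91 (SE 0.228, adjusted p = 0.00526) and Psma3, which was lower in 4 of 4 pulldowns, by -0.64 (SE 0.233, limma adjusted p = 0.0419). These calls depended on single biosamples. Without biosample 2 the change was -0.77 for Psma1 (limma adjusted p = 0.11) and -0.61 for Psma2 (adjusted p = 0.0536), and Psma3 did not pass when any of biosamples 1 to 4 was left out (limma adjusted p = 0.0547 to 0.18). The 3 genes kept their sign under every scaling, but with edgeR and with median-ratio scaling none of the 5 lower calls of the normal biosamples was made, and with quantile normalization 1 was. Over all tested genes the lower calls went from 3509 to 612, 1703 and 1388 in these settings. Psma7, which passed as higher, was at 181 to 404 CPM in normal input and 429 to 1079 CPM in the normal pulldown (log2 change 1.08, limma adjusted p = 0.000353, and 0.25, adjusted p = 0.356, after paclitaxel). Psma6 was higher after paclitaxel, at 43.8, 39.4, 61.9 and 58.3 CPM in input and 68.6, 142, 155 and 80.7 CPM in the pulldown. Its log2 change there was 1.06 (SE 0.32, limma adjusted p = 0.0173, but 0.136 without biosample 6 and 0.0793 without biosample 7). Psma4 and Psma5 passed in neither treatment.

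The ATPases of the base unfold the substrate. In the normal biosamples 4 of 6 passed as higher, Psmc1, Psmc2, Psmc3 and Psmc5, with a median of 1.29 over the 6 genes, and 3 passed after paclitaxel, Psmc1, Psmc2 and Psmc3, with a median of 0.58. The call of Psmc2 after paclitaxel (0.52) was lost without any of biosamples 5 to 8 (limma adjusted p = 0.0736 to 0.232) and without the pairing of input and pulldown (adjusted p = 0.166). Exons of Psmc3 overlap those of Slc39a13 on the opposite strand. Psmc1 (chr12:100110154-100123405, plus strand), which had the highest mean level of the 47 genes over all libraries, was at 330.3, 330.1, 456 and 586 CPM in normal input and at 1158, 1071, 1179 and 1547 CPM in the normal pulldown. After paclitaxel it was at 462, 456, 464 and 531 CPM in input and at 634, 844, 810 and 916 CPM in the pulldown. Neither pair of groups overlapped, and the log2 change was 1.57 (SE 0.169, limma adjusted p = 1.1e-06) and 0.73 (SE 0.169, adjusted p = 0.00352). Psmc5 was at 18.99, 47.0, 57.5 and 21.8 CPM in normal input and at 80.8, 134, 113 and 91.4 CPM in the normal pulldown, and its log2 change was 1.63 (SE 0.301, limma adjusted p = 0.000407). After paclitaxel its change was 0.64 and did not pass (adjusted p = 0.113). Psmc4 and Psmc6 had changes of 0.07 and -0.36 in the normal and 0.47 and 0.38 in the paclitaxel biosamples, none of which passed.

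All 3 further base subunits with a Psm symbol passed as higher in both treatments. Adrm1, a base subunit named otherwise, passed in neither. Psmd4, a receptor for ubiquitin chains (chr3:95032694-95042614, minus strand), was at 527, 495, 367 and 549 CPM in normal input and at 1963, 1621, 852 and 1454 CPM in the normal pulldown. In the paclitaxel biosamples it was at 303, 305, 301 and 347 CPM in input and at 649.8, 728, 613 and 547 CPM in the pulldown. Pulldown and input did not overlap in either treatment, and the log2 change was 1.55 (SE 0.177, limma adjusted p = 1.71e-06) and 1.01 (SE 0.177, adjusted p = 0.000367). The large scaffold subunits Psmd1 and Psmd2 had changes of 1.07 and 1.04 in the normal and of 0.81 and 0.76 in the paclitaxel biosamples (limma adjusted p = 0.00249 and 0.000398, then 0.016 and 0.00586). After paclitaxel Psmd1 did not pass without biosample 5 or 7 (adjusted p = 0.0793 and 0.0944), nor Psmd2 without biosample 6 (limma adjusted p = 0.0656). Exons of Psmd1 overlap those of Htr2b on the opposite strand and of a predicted gene on its own strand, which leaves its level uncertain.

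The lid holds the deubiquitinating enzyme Psmd14 together with scaffold subunits. Psmd3, Psmd13 and Psmd14 passed as higher in the normal biosamples, with changes of 0.54, 1.43 and 1.32 (limma adjusted p = 0.0383, 2.28e-05 and 0.000323), and 0 of 8 as lower. After paclitaxel Psmd3 and Psmd13 passed, with 0.60 and 0.63 (limma adjusted p = 0.0262 and 0.023), and Psmd14, at 0.26, did not (adjusted p = 0.423). The exons of Psmd3, too, overlap those of a predicted gene on the opposite strand. Its normal call was lost without biosample 1, 3 or 4 (limma adjusted p = 0.245, 0.0613 and 0.0519). After paclitaxel it was lost without biosample 5, 6 or 7, and that of Psmd13 without biosample 5 or 6 (limma adjusted p = 0.131 and 0.103). The other lid genes Psmd6, Psmd7, Psmd8, Psmd11 and Psmd12 did not pass, with changes from -0.04 (Psmd11) to 0.90 (Psmd6) in the normal biosamples.

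**Figure D3:**
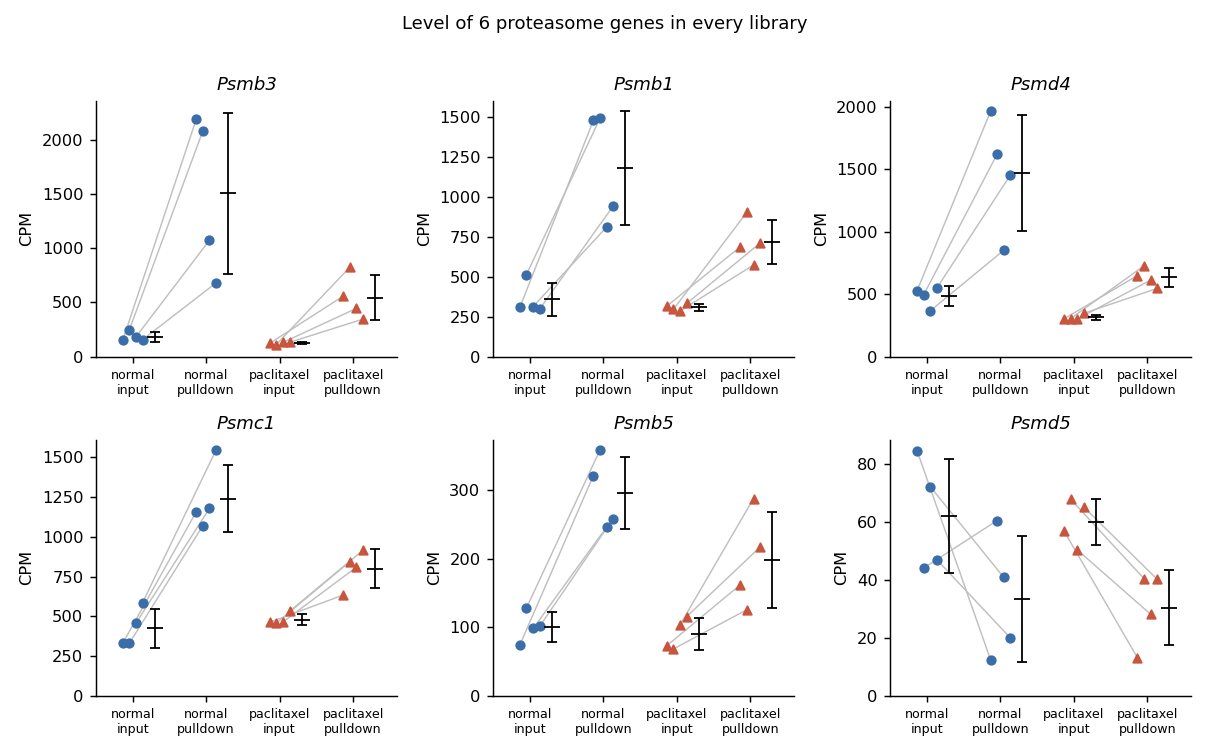
Level in CPM (vertical axis) of Psmb3, Psmb1, Psmd4, Psmc1, Psmb5 and Psmd5 in each library of the 4 groups. Grey lines join input and pulldown of 1 biosample and black bars give the mean and SD over 4 biosamples. In the first 5 genes each pulldown lies above each input of its treatment, while Psmd5 lies lower in 7 of 8 pulldowns.

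Among the chaperones that assemble the regulatory particle, Psmd5 went against the other genes. It was at 84.5, 44.0, 72.0 and 46.9 CPM in normal input and at 12.5, 60.4, 40.8 and 19.9 CPM in the normal pulldown, and after paclitaxel at 56.8, 67.7, 50.3 and 65.0 CPM in input and 13.1, 40.4, 28.1 and 40.1 CPM in the pulldown. The groups overlapped through biosample 2 in the normal samples and did not overlap after paclitaxel. The log2 change was -1.05 (SE 0.392, limma adjusted p = 0.0453) and -1.07 (SE 0.392, adjusted p = 0.0447). The normal call was lost without biosample 1 (-0.52, limma adjusted p = 0.354), 3 (adjusted p = 0.0867) or 4 (adjusted p = 0.106), and the paclitaxel call without any of its biosamples (limma adjusted p = 0.0663 to 0.246). Psmd9 and Psmd10, in contrast, passed as higher in the normal biosamples (1.12 and 1.24, limma adjusted p = 0.0384 and 0.00243) and not after paclitaxel (-0.45 and 0.28, adjusted p = 0.408 and 0.465). The call of Psmd9 was lost without any of biosamples 1 to 4 (limma adjusted p = 0.0574 to 0.151), and its exons overlap those of a predicted gene on the opposite strand.

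Of the core assembly chaperones Psmg3 passed as higher in the normal biosamples (0.84, limma adjusted p = 0.0104), though not without biosample 1 (adjusted p = 0.0685) or 2 (adjusted p = 0.0639), and its exons overlap those of a predicted gene on the same strand. Psmg1, Psmg2 and Psmg4 did not pass. Among the activators Psme2, a subunit of the interferon-inducible ring that caps the core, passed as higher (1.22, limma adjusted p = 0.0229, but 0.151 without biosample 1 and 0.0895 without biosample 3). Its partner in that ring, Psme1, was at 6.87 ± 4.21 CPM in normal input and 7.49 ± 4.90 CPM in the normal pulldown (SD, n = 4, limma adjusted p = 0.909), and its exons overlap those of Emc9 on the opposite strand. Psme4, a single-chain activator, was at 93.4, 93.4, 85.7 and 109 CPM in normal input and at 44.0, 57.9, 38.2 and 72.3 CPM in the normal pulldown, without overlap. Its log2 change was -0.87 (SE 0.247, limma adjusted p = 0.0117, and 0.0583 without biosample 3), and -0.47 after paclitaxel (adjusted p = 0.151). Psme3 and the inhibitor gene Psmf1 passed in neither treatment. Psmb11, the thymus subunit, was at 1.97, 3.09, 16.2 and 15.8 CPM in the paclitaxel pulldown and 24.2, 18.6, 68.0 and 36.0 CPM in the paclitaxel input. The groups did not overlap, though pulldown 7 is the mean of subsamples at 7.03 and 25.3 CPM, the second above inputs 5 and 6. The log2 change was -2.12 (SE 0.621, limma adjusted p = 0.0144), which did not pass without biosample 5 (adjusted p = 0.093), 6 (0.0522) or 7 (0.0504). In the normal biosamples its change was -1.29 and did not pass (limma adjusted p = 0.114).

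Counts after paclitaxel moved with single biosamples as well, from 15 genes higher to 9 without biosample 5 and to 9 without biosample 6. Over all 14214 tested genes the higher calls went from 699 to 394 and 379 in these settings. The 5 lower calls of the normal biosamples became 3 without biosample 1 or 4 and 2 without biosample 2 or 3. The 3509 lower calls of all tested genes became 1852, 2668, 2495 and 3073 without biosample 1, 2, 3 and 4.

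Pathway genes left out by the symbol rule were examined as well. Among them are Adrm1 and Shfm1, which encode subunits of the base and the lid. Adrm1 passed in neither treatment (1.24 and 0.17, limma adjusted p = 0.0944 and 0.846), nor did Shfm1 (-0.44 and 0.47, adjusted p = 0.0975 and 0.0843). The list of 25 tested genes held these and genes for associated enzymes, shuttle proteins, nuclear import factors and regulators. In the normal biosamples 1 of the 25 passed as higher (4%, against 5.09% of all tested genes). As lower, 7 passed (28%, against 24.7%), and both shares were near those of all tested genes. After paclitaxel 2 passed as higher (8%, against 4.92%) and 2 as lower (8%, against 23%). The gene that was higher in the normal biosamples was Nfe2l1, whose product is the transcription factor that raises proteasome genes when the protease is inhibited. It was at 425, 469, 407 and 348 CPM in normal input and at 1284, 1182, 840.5 and 800.2 CPM in the normal pulldown. Pulldowns lay above all inputs, and the log2 change was 1.29 (SE 0.173, limma adjusted p = 1.34e-05), and after paclitaxel the change was 0.27 (adjusted p = 0.251). Nfe2l2, which encodes a related factor of the oxidative stress response, passed as lower in both treatments (-1.38 and -1.28, limma adjusted p = 0.0129 and 0.0199). Further genes lower in the normal pulldown were Akirin1 (-1.72), the shuttle genes Rad23b (-0.66) and Ubqln2 (-0.85), the deubiquitinase gene Usp14 (-0.65), Zfand5 (-0.71) and Psmc3ip (-2.24), a gene of meiotic recombination that stands on the list by its name. After paclitaxel Pomp, which encodes the maturation factor of the core, and Txnl1, a thioredoxin-like protein bound to the regulatory particle, passed as higher (0.89 and 0.71, limma adjusted p = 0.00143 and 0.0241). Ngly1, an enzyme that removes N-glycans and is needed to activate the Nfe2l1 protein, passed as lower (-2.10, adjusted p = 0.00807).

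Because Nfe2l1 and its relatives are known to bind antioxidant response elements in proteasome gene promoters, the sequences around the gene starts were searched. RefSeq promoters of the GRCm38.p6 table, with 250 bases before and 50 after the start, were found for 40 of the 47 genes (43 promoters). On both strands the core of that element, TGACNNNGC, occurred in 6 of 43 promoters (14%), and in 12.4% of 32851 promoters of all genes. The CCAAT box, a general promoter motif, occurred in 14 (32.6%, against 37.4%), and the palindromic pattern TTCNNNGAA in 3 (6.98%, against 8.3%). A match is a description of the letters and not a site. The 4 promoters below belong to core subunits described above and were chosen after their values and matches were seen. Psmb3 had the largest increase on the tagged ribosomes, and its promoter (chr11:97703184-97703483, plus strand) holds CCAAT at -85 and -43 relative to the start. Psmb5 (chr14:54617946-54618245, minus strand) and Psmb6 (chr11:70525107-70525406, plus strand) each hold the element core, at -47 and -9. Psma2 (chr13:14612992-14613291, plus strand), lower on the ribosomes of the normal biosamples, holds CCAAT at -54. All run from 5′ to 3′ along the gene, with the motifs in capitals.
Psmb3: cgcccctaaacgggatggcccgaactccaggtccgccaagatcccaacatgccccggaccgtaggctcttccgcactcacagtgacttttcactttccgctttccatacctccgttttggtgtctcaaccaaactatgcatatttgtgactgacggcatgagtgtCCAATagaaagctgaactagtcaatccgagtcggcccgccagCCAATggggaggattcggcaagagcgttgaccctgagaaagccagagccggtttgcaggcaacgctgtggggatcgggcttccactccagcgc
Psmb5: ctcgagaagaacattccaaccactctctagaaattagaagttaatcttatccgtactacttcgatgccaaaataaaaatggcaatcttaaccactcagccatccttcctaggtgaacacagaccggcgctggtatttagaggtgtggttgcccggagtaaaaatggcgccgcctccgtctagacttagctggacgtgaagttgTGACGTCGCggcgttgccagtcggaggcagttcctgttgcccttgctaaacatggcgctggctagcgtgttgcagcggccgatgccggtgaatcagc
Psmb6: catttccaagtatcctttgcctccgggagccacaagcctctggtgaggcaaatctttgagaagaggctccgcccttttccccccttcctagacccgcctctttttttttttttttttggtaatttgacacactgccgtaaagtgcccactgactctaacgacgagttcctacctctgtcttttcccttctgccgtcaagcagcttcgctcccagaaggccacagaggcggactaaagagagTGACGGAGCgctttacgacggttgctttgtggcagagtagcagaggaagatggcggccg
Psma2: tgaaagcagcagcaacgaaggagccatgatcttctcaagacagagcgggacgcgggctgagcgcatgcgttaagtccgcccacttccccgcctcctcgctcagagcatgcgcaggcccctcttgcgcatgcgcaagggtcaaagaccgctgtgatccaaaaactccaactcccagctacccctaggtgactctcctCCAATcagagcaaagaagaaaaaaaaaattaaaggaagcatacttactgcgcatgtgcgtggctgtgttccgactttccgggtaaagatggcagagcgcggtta

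The next comparison set paclitaxel against normal within the pulldowns, which uses the same pulldown libraries as above. Of the 47 genes Psma2 passed as higher (2.13%, against 1.33% of all tested genes) and Psmd13 as lower (2.13%, against 0.492%), so few that the share of each is 1 gene. The median log2 change was -0.16 for the 47 genes and 0.17 for all tested genes. At an unadjusted p under 0.05 were 19 genes, or 40.4%, where 16.9% of all tested genes were. The 4 paclitaxel pulldowns lay above all 4 normal ones for 5 genes (Psma1, Psma2, Psma3, Psma6 and Psmb6, 10.6%, against 6.73% of all tested genes). They lay below them for 6 genes (Psmc1, Psmd4, Psmd9, Psmd10, Psmd13 and Psmg1, 12.8%, against 3.57%). All 5 genes above are core subunits, and 5 of the 6 genes below belong to the regulatory particle or its assembly. Among the 47 genes the core has 7 alpha, 7 constitutive beta and 4 other beta genes. The regulatory particle has 6 ATPase, 3 further base, 8 lid and 3 chaperone genes. The core subunit Psmb3 had a change of -1.39, with overlap, and whether the 2 particles differed was not tested. The summed level of the 47 genes was 12984 CPM on average in the normal and 9203 CPM in the paclitaxel pulldowns. In the same libraries the pan-neuronal sum was lower after paclitaxel without overlap, though 0 of its 5 genes passed and the mean of Rbfox3 was higher (352 CPM, against 249 CPM), while a sum of 10 nociceptor markers, with 2 genes passing as higher, overlapped (8790 to 11612 CPM in the normal and 9073 to 11320 CPM in the paclitaxel pulldowns). The part of these markers in the changes of the proteasome genes was not tested.

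Psma2, an alpha subunit (ENSMUSG00000015671, chr13:14613240-14674236, plus strand), was at 67.3, 141, 291 and 36.5 CPM in the normal pulldowns and at 575, 505, 658 and 646 CPM in the paclitaxel pulldowns. All paclitaxel pulldowns lay above all normal ones, and they also lay closer together. The log2 change was 2.55 (SE 0.474, limma adjusted p = 0.017). In the inputs it was at 102, 498, 277 and 91.4 CPM in the normal and at 484, 378, 480.0 and 493 CPM in the paclitaxel biosamples. There the normal input of biosample 2 lay above all paclitaxel inputs, and the change of 1.26 did not pass (limma adjusted p = 0.13, but 1.72 with adjusted p = 0.0189 without biosample 2). The pulldown call was lost without biosample 1 (2.36, limma adjusted p = 0.0774), 2 (0.0786), 5 (0.0597), 7 (0.0973) or 8 (0.145). Over 19 alternatives it passed in 11, with changes of one sign and adjusted p from 6.42e-05 to 0.44. Among all 14214 tested genes 189 passed as higher with all biosamples. Without biosample 1, 2, 5, 7 or 8 this number was 21, 0, 24, 4 and 0.

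Psmd13, a scaffold subunit of the lid (ENSMUSG00000025487, chr7:140881968-140898643, plus strand), was at 1373, 1251, 764 and 699.9 CPM in the normal pulldowns and at 492, 540.0, 231 and 282 CPM in the paclitaxel pulldowns. The groups did not overlap, and biosamples 1 and 2 of the normal and 5 and 6 of the paclitaxel pulldowns were the highest of their group. Its log2 change was -1.43 (SE 0.327, limma adjusted p = 0.0426). In input it was at 378, 347, 292 and 456 CPM in the normal and 259, 315, 188 and 195 CPM in the paclitaxel biosamples, a change of -0.63 that did not pass (limma adjusted p = 0.148). The pulldown call was lost without biosample 1 (-1.27, limma adjusted p = 0.132), 2 (0.142), 4 (0.058), 5 (0.0813), 7 (0.175) or 8 (0.187), and it passed in 8 of 19 alternatives. Among all tested genes 70 passed as lower with all biosamples, and 4, 0, 33, 11, 3 and 0 did in these 6 settings. Exons of Psmd13 overlap those of Sirt3 on the opposite strand, and with the strand setting not given, how far its level holds reads of Sirt3 was not tested.

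Other genes had sizeable differences that did not pass. The core subunits Psma1, Psma6, Psmb2 and Psmb6 had changes of 1.88, 1.72, 1.85 and 1.05 in the pulldown (limma adjusted p = 0.0821, 0.0919, 0.121 and 0.0872). Psmd9, Psmb3 and Psmd4 had changes of -1.95, -1.39 and -1.16 (limma adjusted p = 0.0695, 0.0764 and 0.051). With a filter of 5 CPM in 4 libraries 4 genes passed as higher, Psma1, Psma2, Psma6 and Psmb6, and 4 as lower, where 525 and 204 of all 11719 genes kept by that filter did. With edgeR on the recovered reads 6 passed as lower, Psmb3, Psmb10, Psmc2, Psmd4, Psmd9 and Psmd13, and Psma2 as higher, where 285 and 193 of all 14214 genes did. By subcomplex the median change in the pulldown was 0.85 for the 7 alpha genes, 0.07 for the 7 constitutive beta genes, -0.59 for the 6 ATPases, -0.61 for the 3 further base genes, -0.28 for the 8 lid genes and -0.77 for the 3 chaperones of the regulatory particle. It was -0.68 for the 4 chaperones of the core, 0.51 for the 4 other beta genes, 0.27 for the 4 activators and 0.47 for Psmf1. None of the 25 pathway genes passed at the threshold. Nfe2l1, at 475 ± 183 CPM in the paclitaxel pulldown against 1027 ± 242 CPM in the normal one (SD, n = 4), had a change of -1.16 (limma adjusted p = 0.0631), and its 2 groups did not overlap.

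**Figure D4:**
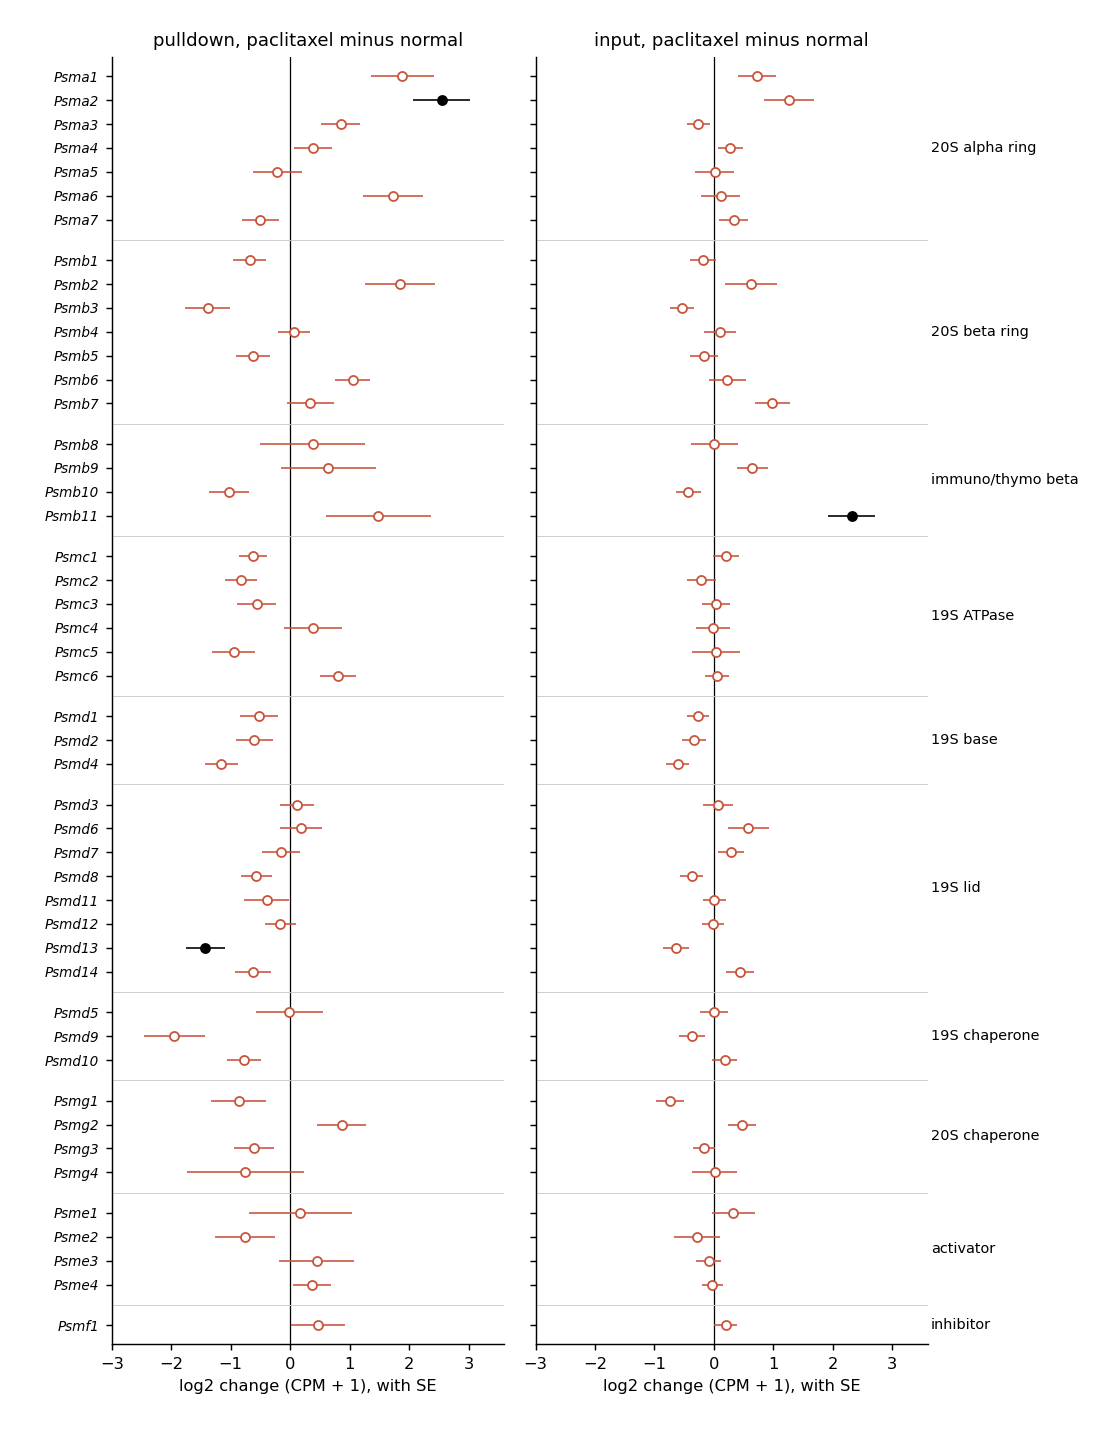
Log2 change of paclitaxel against normal (horizontal axis, difference of log2(CPM + 1)) for each of the 47 genes, in the pulldown and in input, with bars for 1 SE. Filled black points mark changes that passed in limma, Psma2 and Psmd13 in the pulldown and Psmb11 in input.

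In the inputs, which hold all cells of the ganglion, Psmb11 alone passed, as higher (2.13%, against 1.46% of all tested genes), and 0 genes passed as lower (0%, against 0.183%). The median log2 change was 0.02 for the 47 genes and 0.14 for all tested genes. With median-ratio scaling, quantile normalization and edgeR the first fell to -0.08, -0.05 and -0.15. In these settings the median of all tested genes fell as well, to 0.05, -0.03 and -0.02. At an unadjusted p under 0.05 were 9 genes, or 19.1%, the same share as among all tested genes. The 4 paclitaxel inputs lay above all normal ones for 2 genes, Psmb9 and Psmb11 (4.26%, against 8.16% of all tested genes), and below them for 4, Psmb3, Psmb10, Psmd4 and Psmg1 (8.51%, against 3.14%). Psmb11 (ENSMUSG00000072423, chr14:54621433-54629556, plus strand) was at 4.80, 2.82, 10.5 and 7.03 CPM in the normal inputs and at 24.2, 18.6, 68.0 and 36.0 CPM in the paclitaxel inputs. The value of biosample 7 is the mean of subsamples at 48.5 and 87.5 CPM, both above every other input. The log2 change was 2.32 (SE 0.4, limma adjusted p = 0.02), and it did not pass without biosample 1 (2.25, adjusted p = 0.0852), 7 (1.97, adjusted p = 0.0877) or 8 (2.27, adjusted p = 0.0688). It passed in 15 of 19 alternatives, with adjusted p from 0.00958 to 0.108. Among all tested genes 207 passed as higher with all biosamples, and 0, 7 and 17 did without biosample 1, 7 and 8. In the pulldowns Psmb11 was at 0.93 to 3.18 CPM in the normal and 1.97 to 16.2 CPM in the paclitaxel biosamples, and its change of 1.49 did not pass (limma adjusted p = 0.433).

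Levels of cell markers moved in the same inputs. The pan-neuronal sum was lower in every paclitaxel input than in every normal one, as given above, though Uchl1 alone of its 5 genes passed (-1.14, limma adjusted p = 0.0482). A sum of 5 erythroid markers was 847 to 1189 CPM in the normal and 1600 to 3726 CPM in the paclitaxel inputs, with 2 genes passing as higher. Of the satellite glia, macrophage and endothelial lists 1 gene each passed as higher (Fabp7, Lyz2 and Kdr). Among the paclitaxel inputs that of biosample 7, where Psmb11 was highest, had the highest sums of the erythroid, satellite glia, Schwann cell, macrophage and fibroblast lists. The part of these lists in the level of Psmb11 was not tested. Without biosample 2, whose input was the highest normal one for 27 of the 47 genes, 5 genes passed as higher in paclitaxel input, Psma1, Psma2, Psmb7, Psmb11 and Psmd6. Over all tested genes the higher calls rose from 207 to 656 of 14214 in that setting.

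**Figure D5:**
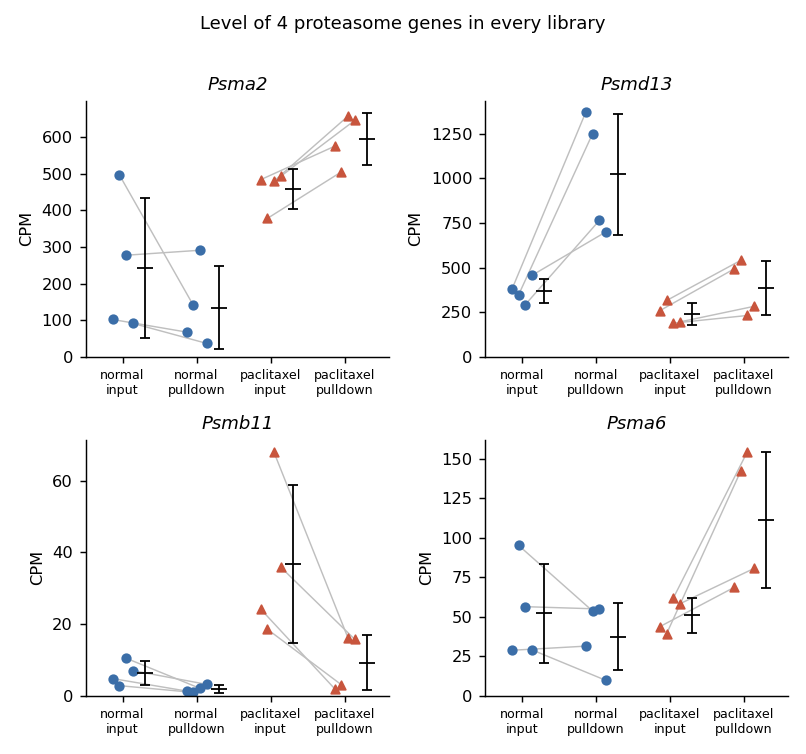
Level in CPM (vertical axis) of Psma2, Psmd13, Psmb11 and Psma6 in each library of the 4 groups. Grey lines join input and pulldown of 1 biosample and black bars give the mean and SD over 4 biosamples. Psma2 is high in all paclitaxel libraries, Psmd13 is lower in the paclitaxel than in the normal pulldowns, and Psmb11 is high in the paclitaxel inputs.

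Whether paclitaxel shifted the pulldown relative to input was tested with the interaction term of the paired fit. None of the 47 genes passed in limma as shifted up (0%, against 0.162% of all tested genes) or down (0%, against 0.0281%), and none did in edgeR, where 0 of all tested genes passed. At an unadjusted p under 0.05 were 17 genes, or 36.2%, where 11.3% of all tested genes were. The lowest p was that of Psma2, with a shift of 1.29 (SE 0.323, limma adjusted p = 0.0896), followed by Psma6 with 1.61 (SE 0.452, adjusted p = 0.127). Without biosample 3 the shift of Psma2 passed (1.61, limma adjusted p = 0.0198). The median shift was 1.12 for the 7 alpha genes, -0.46 for the constitutive beta genes, -0.61 for the ATPases and -0.40 for the lid genes, beside -0.26 for the 47 genes and 0.02 for all tested genes. Psmc1 and Nfe2l1 had shifts of -0.84 and -1.02 (limma adjusted p = 0.138 and 0.0723). These values share their libraries with the comparisons above and are no further evidence for them.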

How the data were processed

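Per the labels' protocols, 3′ end mRNA libraries (QuantSeq, with rRNA depletion) were made from input and anti-GFP pulldown RNA. The submitters' processing notes name, with no roles, Cufflinks 2.2.1, Bowtie2 2.2.9, TopHat2 2.1.1, FastQC 0.11.5 and the build GRCm38.p4. GENCODE vM10 annotation is named per the file headers. The deposited values are headed TPM but are CPM: each library sums to the same total and 98.0% to 99.0% of its values are whole multiples of 1 step, within 0.0051 CPM. They carry no division by length. Another 2 columns, the authors' merges of the biosample 7 subsamples, were not used.

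The genes that reached 1 CPM in 4 or more of 16 libraries were tested on log2(CPM + 1) in R 4.3.3 by limma 3.58.1 (two-sided, with an intensity trend, Benjamini-Hochberg over 14214 genes, threshold 0.05). The pseudocount understates changes of low genes. A single fit, blocked on biosample, gave the pulldown against input per treatment with their interaction, and paclitaxel against normal came from separate fits of the 8 pulldowns and the 8 inputs. Labels give input and pulldown as fractions of 1 homogenate, and deviations of a pair from the group means correlated at 0.0534 to 0.376 over biosamples 1 to 4 and at 0.13 to 0.201 over biosamples 5 to 8. Between unmatched libraries the values were -0.32 to 0.139 and -0.21 to 0.165, and these ranges overlap. Input 1 correlated more with pulldown 4 (0.117) than with its own, so the pairing rests on the labels. Recovered reads were tested with edgeR 4.0.16 (TMM, quasi-likelihood) as an alternative, and the fits were tested on simulated data. The members and lists were chosen with earlier results of these data known. The naming rule chose up to 4 passing genes of largest change in each direction of a comparison (the 2 with the lowest p where none passed), the catalytic subunits, the genes with the highest and lowest level, and Nfe2l1. Most of these are given per biosample in at least 1 comparison, and some of their groups as ranges, means or changes alone. Psmb4, Psmb7, Psmb8 and Psmb9 are given only as changes, shares, ranges or single values. Psmd4 was added after its values were seen, and the other genes are given as single values. GENCODE vM21 on GRCm38, which held all 47 genes, gave exon overlaps and coordinates, and figures came from matplotlib 3.10.9.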

Additional observations from a re-analysis of the deposited data

Results flagged for a closer look

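Of 188 sets of 4 libraries (47 genes in 4 groups), 8 held 1 library that stood apart on the log2(CPM + 1) scale, where chance alone gives about 1 in 20. No explanation was weighed. High values were those of Psmb1 in normal input 2 (515.1 CPM, the others 299.1 to 314.2 CPM), Psmc1 in paclitaxel input 8 (531.2 CPM, the others 456.3 to 464 CPM), Psmd4 in paclitaxel input 8 (347.3 CPM, the others 300.8 to 304.9 CPM) and Psmc3 in paclitaxel input 5 (212.2 CPM, the others 180.2 to 184.1 CPM). Low values were those of Psma2 in paclitaxel input 6 (377.9 CPM, the others 480 to 493 CPM), Psmd1 in normal input 1 (69.36 CPM, the others 87.86 to 89.48 CPM), Psmd1 in paclitaxel input 8 (60.25 CPM, the others 72.18 to 72.66 CPM) and Psmd3 in normal TRAP 4 (163.8 CPM, the others 338.7 to 393.2 CPM).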

How the results depend on the processing

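No change of a named gene reversed its sign where it was called: of 1924 values of single genes under the alternatives, 1751 kept their side of the threshold, 150 lost and 23 gained a call, and 0 reversed. The 20 genes higher in the normal pulldown became 25 with edgeR and with median-ratio scaling, all of the 20 among them, and 16 to 19 when 1 biosample was left out. Over all tested genes 724 became 1252, 1407 and 475 to 669 in these settings. The 15 genes higher in the paclitaxel pulldown became 6 without the intensity trend, 20 with edgeR, 22 with median-ratio scaling, 9 with only biosamples 3, 4, 7 and 8, and 9 to 14 with 1 biosample left out. For all tested genes 699 became 349, 1148, 1269, 411 and 379 to 607 in the same order. The 5 genes lower in the normal pulldown became 0 with edgeR and median-ratio scaling, 1 with quantile normalization, 3 with no filter or with subsample 1 of biosample 7, 2 without the trend or with biosamples 3, 4, 7 and 8, and 2 to 3 with 1 left out. The lower calls of all tested genes went from 3509 to 612, 1703, 1388, 2684, 2246, 2646, 1863 and 1852 to 3073 in that order. The 2 lower after paclitaxel became 0 with edgeR or with biosamples 3, 4, 7 and 8, 1 with a pseudocount of 0.1, no filter, median-ratio scaling, quantile normalization, no trend or subsample 2, and 0 to 1 with 1 left out. All tested genes went from 3264 to 767, 1434, 3033, 2852, 1951, 1492, 2545, 3016 and 1670 to 3187 in that order. Without the replicate block, which follows the pairing of input and pulldown, 17 were higher and 2 lower in the normal and 10 higher and 1 lower in the paclitaxel biosamples. Of all tested genes 542 were then higher and 2745 lower in the normal and 431 and 2688 in the paclitaxel biosamples.

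Between treatments, the 1 gene higher in the pulldown became 4 with a filter of 5 CPM in 4 libraries, 0 with no filter, no trend or biosamples 3, 4, 7 and 8, and 0 to 2 with 1 left out. The 189 higher calls of all tested genes became 525 with that filter and 0 to 367 with 1 left out. With no filter, no trend or biosamples 3, 4, 7 and 8, 0 of all tested genes passed in either direction. The 1 lower became 6 with edgeR, 4 with the filter of 5 CPM or quantile normalization, 3 with a pseudocount of 0.1, 2 with median-ratio scaling, 0 with a pseudocount of 5, no filter, no trend, subsample 1 or biosamples 3, 4, 7 and 8, and 0 to 3 with 1 left out. The 70 lower calls of all tested genes became 285, 204, 216, 112 and 135 in the first 5 of these settings. They became 57 with a pseudocount of 5, 30 with subsample 1 and 0 to 124 with 1 left out. The 1 gene higher in input became 0 with no filter and 0 to 5 with 1 left out, where 207 of all tested genes became 0 and 0 to 656. The shift, with 0 genes, gave 0 to 1 higher with 1 left out, where 23 of all tested genes became 0 to 72. The cause of these moves was not tested.

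Scaling moved the median of all genes by 0.336 (median-ratio), 0.656 (quantile) and 0.213 (edgeR) in the normal biosamples and by 0.277, 0.6 and 0.199 after paclitaxel. The share of higher among all calls was 17.1% in the normal biosamples and 45.2%, 48.5% and 67.2% under these, 17.6% after paclitaxel and 39.4%, 47.6% and 59.9%, 73% for paclitaxel against normal in the pulldown and 46.2%, 58.7% and 40.4%, and 88.8% in input and 76%, 80.4% and 68.1%. The distance of the proteasome median from that of all genes was 1.14, 0.81 and 1.35 in the normal biosamples, where it was 1.04 as reported, 1.00, 0.49 and 1.13 after paclitaxel (0.96), and -0.39, -0.23 and -0.38 between pulldowns (-0.33). Depth limits Psmb9 and Psmb11, which lie within a few CPM of the floor in some pulldowns.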

Other observations

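Libraries of 1 group differed in which held the highest proteasome levels. Normal input 2 held the highest level of its group for 27 of the 47 genes and a summed level of 7246 CPM, where the other normal inputs summed to 5103 to 5856 CPM. Paclitaxel input 6 held the lowest level for 24 genes. The median coefficient of variation over the 47 genes was 26.8% in normal input, 38.5% in the normal pulldown, 14.6% in paclitaxel input and 35.7% in the paclitaxel pulldown (n = 4 each). The steadiest gene was Psma3 in normal input (6.37%), Psmd10 in the normal pulldown (14.9%), Psmf1 in paclitaxel input (3.88%) and Psma2 in the paclitaxel pulldown (11.8%), although Psma2 was the most variable gene of the normal inputs (78.8%). The subsamples of biosample 7 differed in the pulldown more for some genes than for others: Psmb7 was at 1.59 and 56.0 CPM, Psme3 at 0.47 and 37.5 CPM and Psmb3 at 568 and 323 CPM, values chosen after they were seen.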
